A study of Mus musculus with 8 samples.

Results

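The Krüppel-like factors (KLFs) are zinc-finger transcription factors, and the mRNAs of 10 of them are described here in mouse skeletal muscle with and without knockdown of *Uba1*. The members were chosen by the TPM of *Klf2*, whose mRNA was lower with *Uba1* siRNAs in this same comparison, and *Klf3*, *Klf4*, *Klf5*, *Klf6*, *Klf7*, *Klf9*, *Klf10*, *Klf13* and *Klf15* were added as its family. They are 10 of the 17 genes named Klf and a number, and of the 41709 gene symbols measured. All 10 reached a level of 1 TPM (transcripts scaled to a fixed total in each muscle) in at least 4 of the 8 muscles, which was required for testing, as did 11530 genes. The difference of *Klf2* is therefore a description and was not tested.

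Male C57BL/6J mice at 3 months of age were used, and RNA-seq was done on their tibialis anterior (TA) muscles 7 days after siRNAs were electroporated. In each of 4 mice, 1 TA muscle had received a pool of 4 siRNA species against *Uba1*, which encodes the main ubiquitin-activating enzyme (E1), and the contralateral muscle, called the NT muscle, had received control non-targeting (NT) siRNAs. Muscles of the same replicate share a number in their titles, read here as the legs of 1 mouse, so the mice are called mouse 1 to mouse 4 here. By the titles every NT muscle is marked R and every *Uba1* siRNA muscle L, and leg and siRNA cannot be told apart. The treatment tags name UBA1, UBA2, UBA3 and UBA4 for replicates 1 to 4, whereas the titles name UBA1 for all of them. Electroporation reaches part of the cells of a muscle and RNA was taken from whole tissue, in which fewer cells of a type and less RNA per cell cannot be told apart.

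KLFs bind CACCC and GC-rich boxes through 3 zinc fingers at their C-terminus, and they share these sites with the related SP factors. *Klf2*, *Klf4* and *Klf6* are rapidly induced genes, and *Klf2* and *Klf4* are known for keeping endothelium quiescent under blood flow. *Klf9* and *Klf15* respond to glucocorticoids and to the circadian clock, and *Klf15* controls amino acid and lipid use in muscle. Several KLF proteins, KLF2 and KLF4 among them, are short-lived and removed through ubiquitin ligases, which the mRNA values do not measure.

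The promoters of *Klf2*, *Klf4* and *Klf6* are shown because these mRNAs had the largest differences between legs, and that of *Klf15* because its mRNA varied more between mice than between legs. Each sequence lies in the 250 bases before the start of the canonical transcript (GENCODE M39, GRCm39), 5′ to 3′ on the strand of the gene, and was limited to bases outside annotated exons. Capitals mark matches on either strand to the CACCC box (CCACCC), the GC box (GGGCGG), the CCAAT box (CCAAT), the E-box (CACGTG), which clock proteins of the bHLH class bind, or the MEF2 site. *Klf2* is shown from chr8:73072476-73072725 (plus strand), *Klf4* from chr4:55532529-55532716 (minus strand), *Klf6* from chr13:5911231-5911480 (plus strand) and *Klf15* from chr6:90439196-90439366 (plus strand). The stretch of *Klf15* lies before the canonical start but within an intron of a longer *Klf15* transcript that starts upstream.
Klf2: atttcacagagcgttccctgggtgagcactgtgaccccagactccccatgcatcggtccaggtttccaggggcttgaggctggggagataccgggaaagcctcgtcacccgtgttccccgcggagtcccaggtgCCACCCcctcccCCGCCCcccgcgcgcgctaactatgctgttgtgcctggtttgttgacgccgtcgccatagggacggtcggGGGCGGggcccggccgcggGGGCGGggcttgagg
Klf4: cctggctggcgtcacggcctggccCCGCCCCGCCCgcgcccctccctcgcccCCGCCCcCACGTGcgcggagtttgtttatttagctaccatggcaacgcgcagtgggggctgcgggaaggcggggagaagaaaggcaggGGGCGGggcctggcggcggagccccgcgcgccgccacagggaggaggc
Klf6: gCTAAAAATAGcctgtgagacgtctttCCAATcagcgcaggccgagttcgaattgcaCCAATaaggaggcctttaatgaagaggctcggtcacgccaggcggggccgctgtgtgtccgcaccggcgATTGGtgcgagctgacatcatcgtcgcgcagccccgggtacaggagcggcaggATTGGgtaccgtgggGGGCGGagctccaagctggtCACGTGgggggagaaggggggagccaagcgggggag
Klf15: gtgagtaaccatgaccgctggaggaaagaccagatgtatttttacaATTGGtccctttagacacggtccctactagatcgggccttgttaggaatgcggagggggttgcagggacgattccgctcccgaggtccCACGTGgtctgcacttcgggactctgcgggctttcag

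Over the full 250 bases, *Klf2* held 3 GC boxes, *Klf4* 4, of which the first 2 share a base, and *Klf6* 1, while *Klf3* held the most with 8. GC boxes were found in 8 of 10 members and in 36.3% of the 21770 promoters of protein-coding genes, and CACCC boxes in 4 of 10 members and in 28.6% of all promoters. The E-box was found in *Klf4*, *Klf6* and *Klf15*, against 6.26% of all promoters, with 2 matches in *Klf15*. *Klf6* was the member with a MEF2 site, found in 2.79% of promoters. CCAAT boxes were found in 7 of 10 members and in 36.5% of promoters. A cAMP response element (TGACGTCA, in 1.69% of promoters), a serum response element of the CArG type (in 1.4%) and a TATA box (TATAAA, in 11.9%) were found in 0 of the 10. The part of the element TGACGT, in 6.49% of promoters, was found in *Klf13*. GC content was 68.8% in *Klf2*, 73.6% in *Klf4* and 63.2% in *Klf6*, and in the others it was highest in *Klf3* (82.4%) and *Klf13* (71.6%) and lowest in *Klf15* (57.2%) and *Klf9* (46.4%), with a median of 53.2% over all promoters. GC content above this median was found in *Klf2*, *Klf4* and *Klf6* and in other members as well, and its relation to the mRNA values was not tested. These are matches of letters, with no measurement of binding.

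*Uba1*, the targeted gene (chromosome X, 20524493 to 20549418), was at 60.6, 59.0, 63.6 and 59.1 TPM in NT muscles and at 18.1, 6.77, 15.8 and 23.1 TPM in *Uba1* siRNA muscles in mice 1 to 4. It was lower in 4 of 4 mice, and the muscle of mouse 4 retained the most (log2FC -1.98 ± 0.290 SE, with limma adjusted p = 0.0527, or 0.0278 when the mouse was fitted as a replicate block). Over all genes, 81.8% were higher with *Uba1* siRNAs and the median log2FC was 0.11. With median-ratio scaling these values were 50.7% and 0.0016, so differences relative to the median of all genes are given as well. Transcripts of the mitochondrial genome took 42.1% to 45.7% of TPM in NT muscles and 39.9% to 50.3% with *Uba1* siRNAs. The depth is unknown, since TPM keep no total of reads.

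At the level of the family, the 10 mRNAs spanned a wide range in control muscle, and TPM allow this comparison because they are scaled by transcript length. With NT siRNAs, *Klf9* was the most abundant (79.5 ± 16.5 TPM, SD, n = 4 muscles), followed by *Klf4* (43.9 ± 6.39), *Klf2* (42.5 ± 5.51) and *Klf6* (39.8 ± 7.61). *Klf4*, *Klf2* and *Klf6* overlapped and had no fixed order. *Klf15* (22.2 ± 5.45 TPM), *Klf10* (16.5 TPM) and *Klf13* (11.7 ± 1.56 TPM) came next, each overlapping its neighbor. *Klf7* (6.50 TPM), *Klf3* (3.08 ± 0.235 TPM) and *Klf5* (1.57 TPM) were the lowest and were separate in every muscle.

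With *Uba1* siRNAs the order differed in its upper part. *Klf9* remained first (75.1 ± 11.8 TPM), but *Klf4* (29.6 ± 5.14), *Klf6* (28.5 ± 7.11) and *Klf2* (26.6 ± 6.17) now overlapped with *Klf15* (23.2 ± 4.61 TPM). *Klf6* was above *Klf15* in 4 of 4 NT muscles and in fewer of the others, since in mouse 3 it was at 22.6 TPM beside 23.2 TPM of *Klf15*. Without *Klf2*, which was chosen for its difference, the summed TPM of the 9 other members were 184 to 260.2 with NT siRNAs and 174 to 233 with *Uba1* siRNAs, with overlapping groups and lower in 4 of 4 mice.

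**Figure D1:**
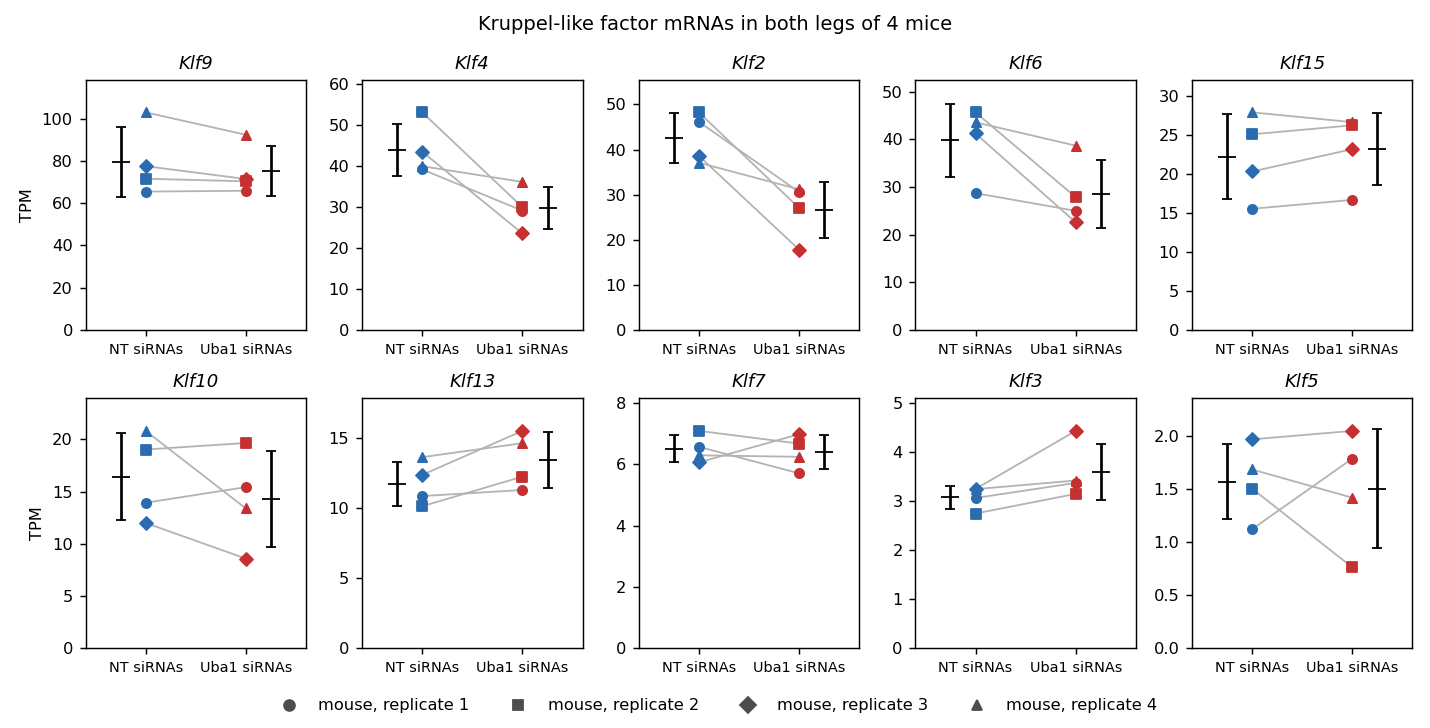
TPM (vertical axis, from 0) of the 10 members in muscles with NT siRNAs (blue) and *Uba1* siRNAs (red), with a marker for each mouse, a gray line joining its legs, and black bars for mean ± SD of 4 muscles. The lines of *Klf2*, *Klf4* and *Klf6* slope down in 4 of 4 mice, whereas those of *Klf9* and of *Klf15* go in both directions, with mouse 1 lowest in both legs.

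*Klf2*, the flow-induced factor of endothelium and of lymphocyte quiescence, lies on chromosome 8 from 73072726 to 73075502. It was at 46.2, 48.3, 38.6 and 37.1 TPM in NT muscles and at 30.6, 27.0, 17.8 and 31.2 TPM in *Uba1* siRNA muscles. Each muscle with *Uba1* siRNAs was below each control muscle. The mean was 62.7% of the control mean (log2FC -0.68, standard error 0.170), or -0.78 relative to the median of all genes. The ratio between legs was 0.662, 0.560, 0.461 and 0.841 in mice 1 to 4, farthest from 1 in mouse 3 and nearest to 1 in mouse 4.

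*Klf4*, the close relative of *Klf2* in endothelium and a reprogramming factor (chromosome 4, 55527139 to 55532528), was at 39.1, 53.0, 43.4 and 39.9 TPM in NT muscles and at 29.0, 29.9, 23.5 and 36.1 TPM in *Uba1* siRNA muscles. The groups did not overlap. The mean with *Uba1* siRNAs was 67.5% of the control mean, a log2FC of -0.56 (95% interval -0.86 to -0.25), or -0.66 relative to the median of all genes. This difference passed an unadjusted P of 0.05 in limma but not the adjustment over 11530 genes (adjusted p = 0.146 from limma, and 0.0855 with the replicate block). Legs differed most in mice 2 and 3 (ratios 0.564 and 0.541) and least in mouse 4 (0.904).

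*Klf6*, an injury-responsive factor found in many cell types (chromosome 13, 5911481 to 5920393), was at 28.7, 45.7, 41.2 and 43.6 TPM in NT muscles and at 25.0, 27.9, 22.6 and 38.7 TPM in *Uba1* siRNA muscles. It was lower in 4 of 4 mice, although the groups overlapped through mouse 1, whose control muscle was low, and mouse 4. The log2FC was -0.47 (95% interval -0.89 to -0.058, adjusted p = 0.237 from limma, 0.107 with the replicate block), or -0.58 relative to the median of all genes. The ratios between legs were 0.871, 0.610, 0.547 and 0.888. *Klf2*, *Klf4* and *Klf6* shared mouse 3 as the mouse with the lowest ratio and mouse 4 as that with the highest, while *Uba1* itself was at 0.298, 0.115, 0.248 and 0.391 of the other leg.

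**Figure D2:**
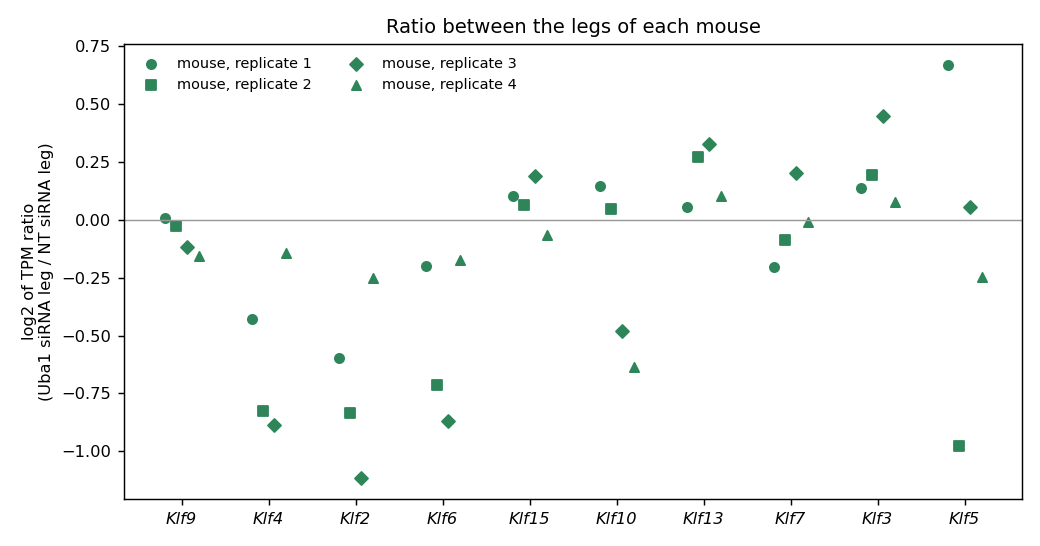
Ratio of TPM between the leg with *Uba1* siRNAs and the leg with NT siRNAs (vertical axis, log2 scale, 0 for equal legs) for each member, with a marker for each of 4 mice. All 4 markers of *Klf2*, *Klf4* and *Klf6* lie below 0, with mouse 3 lowest and mouse 4 highest in each.

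*Klf10*, a factor induced by TGF-β, was at 13.9, 19.0, 12.0 and 20.8 TPM in NT muscles and at 15.4, 19.7, 8.60 and 13.4 TPM in *Uba1* siRNA muscles. It was lower in mice 3 and 4 and slightly higher in mice 1 and 2. The log2FC was -0.21 (95% interval -0.76 to 0.33, adjusted p = 0.632 from limma), or -0.32 relative to the median of all genes. That interval includes differences as large as those of *Klf4* and *Klf6*. The log2FC rested on single muscles, being -0.0085 without *Uba1* siRNA replicate 3 and -0.38 without *Uba1* siRNA replicate 2.

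Among the hormone- and clock-responsive members, *Klf9* was at 65.5, 71.6, 77.6 and 103 TPM in NT muscles and at 65.9, 70.4, 71.5 and 92.5 TPM in *Uba1* siRNA muscles. The legs of each mouse were close to each other, and mice differed more than siRNAs did (log2FC -0.072, 95% interval -0.41 to 0.27, adjusted p = 0.796 from limma). Relative to the median of all genes *Klf9* was at -0.18, and its log2FC was 0.059 without NT replicate 4. *Klf15* was at 15.6, 25.1, 20.4 and 27.9 TPM in NT muscles and at 16.7, 26.3, 23.2 and 26.7 TPM in *Uba1* siRNA muscles. Its log2FC was 0.069 (95% interval -0.37 to 0.51, adjusted p = 0.852 from limma), and -0.047 with median-ratio scaling. *Klf13*, a regulator of lymphocytes and of heart development, was at 10.9, 10.1, 12.4 and 13.6 TPM in NT muscles and at 11.3, 12.2, 15.5 and 14.6 TPM in *Uba1* siRNA muscles (log2FC 0.18, 95% interval -0.094 to 0.44, adjusted p = 0.430 from limma). *Klf13* was higher in 4 of 4 mice, by an amount near the median of all genes (0.070 above it). The log2FC of *Klf13* was 0.11 without *Uba1* siRNA replicate 3 and 0.063 with median-ratio scaling.

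The remaining members were low in abundance, and log2FC on the log2(TPM + 1) scale understates their differences. *Klf3*, a repressor that recruits CtBP and is present in muscle fibers, was at 3.07, 2.75, 3.25 and 3.25 TPM in NT muscles and at 3.38, 3.15, 4.44 and 3.42 TPM in *Uba1* siRNA muscles. It was higher in 4 of 4 mice with overlapping groups (log2FC 0.17, 95% interval -0.054 to 0.39, adjusted p = 0.372 from limma), which is 0.060 above the median of all genes. The log2FC of *Klf3* was 0.083 without *Uba1* siRNA replicate 3 and 0.072 with median-ratio scaling. *Klf7*, known from neurons and adipocytes, ranged from 6.06 to 7.08 TPM in NT muscles and from 5.70 to 6.98 TPM with *Uba1* siRNAs (log2FC -0.021, 95% interval -0.20 to 0.16, adjusted p = 0.894 from limma). Relative to the median of all genes it was at -0.13. *Klf5*, a factor of smooth muscle and epithelium, ranged from 1.12 to 1.97 TPM and from 0.762 to 2.05 TPM, with 2 mice in each direction (log2FC -0.056, adjusted p = 0.868 from limma), or -0.16 relative to that median. Antisense transcripts overlap *Klf3*, *Klf7* and *Klf10* and were listed at no more than 0.217, 0.177 and 0.262 TPM. One that was not listed overlaps *Klf9*, and without strand the reads of such partners cannot be told apart.

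Over the 9 members other than *Klf2*, 0 passed an adjusted p of 0.05 with limma, against 3 genes (0.026%) of all tested, and 0 passed with the replicate block, against 57 (0.494%). The Kruskal-Wallis test gave 0 members and 0 genes at an adjusted p of 0.05, with 2210 genes at an unadjusted P under 0.05. With 4 against 4 muscles, the lowest P it can give is 0.0209, which *Klf4* had, and this adjusted to 0.180. It could therefore pass no gene here. At an unadjusted P under 0.05, *Klf4* and *Klf6* were lower by either test, 2 of 9, where limma had 1.98% of all genes lower and 16.0% higher. *Klf4* was the 1 of 9 with all muscles below all controls, as were 1.01% of all genes, whereas 10.6% had all muscles above. With the replicate block *Klf13* was higher at an unadjusted P under 0.05 beside the lower *Klf4* and *Klf6*, 3 of 9 in all, where 2.8% of all genes were lower and 22.4% higher. Relative to the median of all genes, 7 of the 9 were lower and 2 higher, and their median log2FC was -0.056 against 0.11 for all genes.

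**Figure D3:**
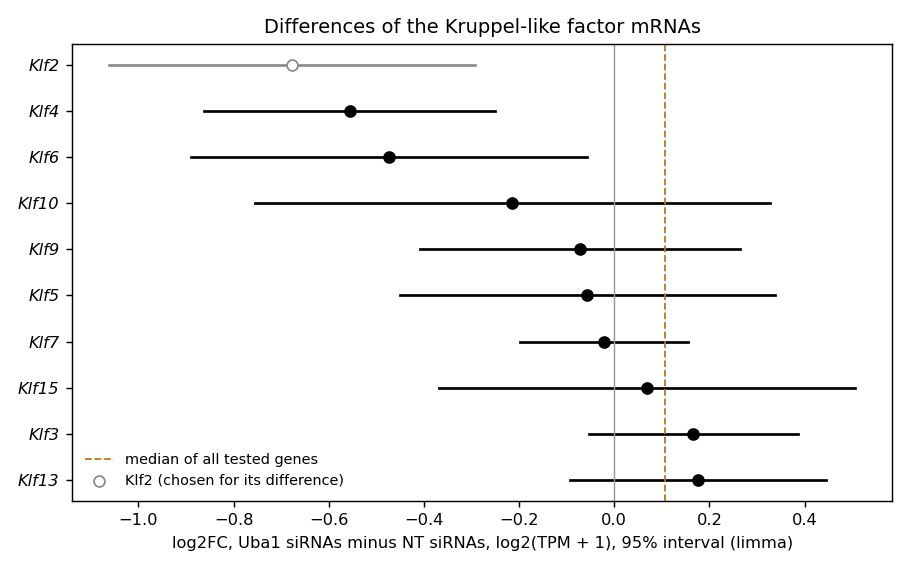
Difference between *Uba1* siRNAs and NT siRNAs (horizontal axis, log2FC of TPM + 1) of each member, with dots for the estimate and lines for its 95% interval from limma over 8 muscles. *Klf2* is drawn open because it was chosen for its difference, so its interval is a description and no test. The intervals of *Klf4* and *Klf6* end below 0, left of the median of all genes at 0.11 (dashed).

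The members differed in how the spread of mouse means compared with the spread of leg differences. A mean of both legs varies less than their difference even where mice do not differ, so equal spreads are no neutral point. A leg difference shared by all mice does not enter the spread of leg differences. For *Klf9* the SD over mice of the mean of both legs was 0.245 on the log2(TPM + 1) scale, against an SD of 0.0765 of the difference between legs. For *Klf15* these were 0.325 and 0.102. The ratio of the spreads was 3.20 and 3.18, and 1.48% and 1.51% of all tested genes had a higher ratio, with a median ratio of 0.695. *Klf4* had 0.143 between mice and 0.339 between legs, and *Klf2* had 0.225 and 0.353. Their ratios were 0.421 and 0.637, exceeded by 79.0% and 55.7% of all tested genes. For 28.5% of all genes the SD of mouse means was the larger of the 2. For *Klf10* these were similar, at 0.370 and 0.360. *Klf9*, *Klf13*, *Klf15* and *Klf6* shared mouse 4 as the highest and mouse 1 as the lowest, whereas *Klf2*, *Klf4* and *Klf10* were lowest in mouse 3.

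**Figure D4:**
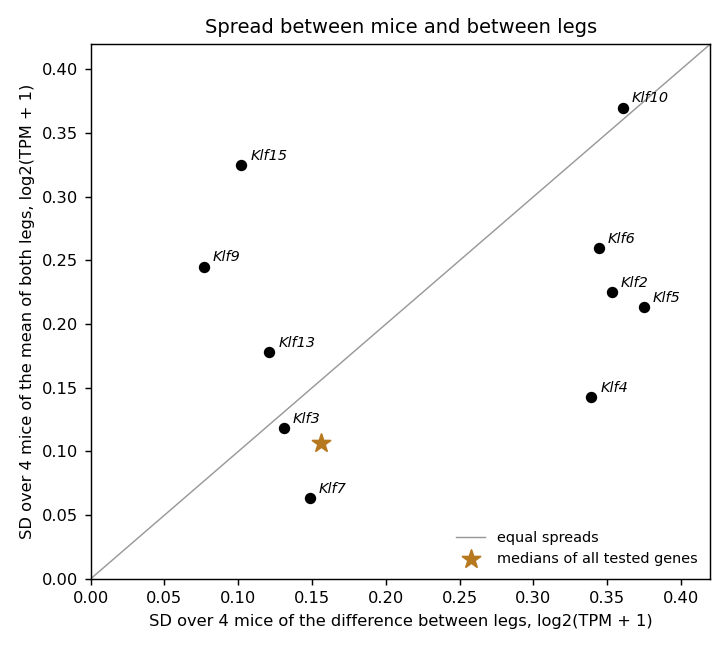
SD over 4 mice of the mean of both legs (vertical axis) against the SD of the difference between legs (horizontal axis), both in log2(TPM + 1), for each member and for the medians of all tested genes (star). *Klf9* and *Klf15* lie far above the line of equal spreads, and *Klf4* lies below it, on the side of the median gene.

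Of 10 clock genes, 8 had a larger SD of mouse means than of leg differences, as did 28.5% of all tested genes. *Clock* (SD 0.228 between mice and 0.242 between legs) and *Cry1* (0.121 and 0.207) did not. The genes named here were chosen after their values were seen. *Per2*, a clock repressor, was at 1.30, 2.51, 2.39 and 8.78 TPM in NT muscles and at 1.49, 3.01, 2.93 and 10.6 TPM in *Uba1* siRNA muscles in mice 1 to 4. *Dbp*, a clock output gene, was at 14.8, 19.3, 22.1 and 49.8 TPM and at 23.5, 29.5, 27.0 and 59.7 TPM. *Arntl*, which encodes the activator BMAL1, was at 6.99, 6.05, 5.56 and 1.95 TPM and at 6.50, 5.90, 6.83 and 2.13 TPM. Mouse 4 was thus high in *Per2* and *Dbp* and low in *Arntl* in both legs, and it is also the mouse with the highest *Klf9* and *Klf15*. For *Klf15*, however, mouse 2 was close, at 25.1 and 26.3 TPM beside 27.9 and 26.7 TPM of mouse 4. Mouse 1 was the one apart, at 15.6 and 16.7 TPM of *Klf15*. Between siRNAs, 0 of the 10 clock genes passed an unadjusted P of 0.05 in limma without the mouse. With the replicate block 5 did, all 5 higher, against 22.4% of all genes, and 0 passed the adjusted p (*Per2* 0.149 and *Dbp* 0.0764, limma). The median log2FC of the 10 was 0.16. *Per1*, also a clock gene, was listed with the glucocorticoid-responsive genes instead. It went the other way, lower in 4 of 4 mice (log2FC -0.61, adjusted p = 0.0794 from limma with the replicate block). The hour at which each muscle was taken is not given in the sources used here, and its part in the spread of *Klf9* and *Klf15* was not tested.

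The other genes named Klf and a number were low. *Klf11*, *Klf12* and *Klf16* were tested, and 0 of the 3 passed the adjusted p in limma, with 2 at an unadjusted P under 0.05 in opposite directions, where 16.0% of all genes were higher and 1.98% lower. *Klf12* was at 1.69 ± 0.604 TPM in NT muscles and at 2.39 ± 0.349 TPM in *Uba1* siRNA muscles (adjusted p = 0.259 from limma), and *Klf16* at 3.30 ± 0.667 and 2.48 ± 0.420 TPM (adjusted p = 0.260). *Klf1*, *Klf8* and *Klf14* were below the level required for testing (exact permutation test, two-sided, p = 0.857, 0.229 and 0.4) and *Klf17* was listed at 0 in every muscle. Among the 9 SP factors, which bind the same boxes, 4 were tested and 0 passed, and the 1 with an unadjusted P under 0.05 was *Sp3*, at 7.55 ± 0.992 and 9.37 ± 0.912 TPM (adjusted p = 0.214). *Sp7*, the osteoblast factor osterix, was below that level but did not overlap between groups, at 0.355, 0.190, 0.275 and 0.101 TPM in NT muscles and 0.678, 0.979, 0.935 and 0.871 TPM with *Uba1* siRNAs. *Sp7* was named because of these values, so they are a description for which no p is given, and 10.6% of the tested genes also had all muscles above all controls.

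Genes that act upstream of KLFs or on their proteins stayed near the median of all genes. Of 8 genes of the MEKK-ERK5-MEF2 route, which induces *Klf2* and *Klf4*, 5 were above that median and 0 passed the adjusted p. The 2 with an unadjusted P under 0.05 were *Mef2a* (log2FC 0.22) and *Map2k5*, the kinase of ERK5 (log2FC 0.20), both higher, as were 16.0% of all genes at this P. Of 8 ubiquitin ligases and related genes that remove KLF proteins or stabilize them, 6 were above the median and 0 passed, with *Vhl* (log2FC 0.28) and *Itch* (log2FC 0.22) higher at an unadjusted P under 0.05, which is again to be read against 16.0%. Of 9 cofactors, 5 were above the median and 0 passed, with the acetyltransferase gene *Kat2b* at a log2FC of 0.28. The median log2FC of these lists was 0.13, 0.12 and 0.12, against 0.11 for all genes.

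Genes known to respond to KLF2 in endothelium lay below the median of all genes, as did 8 of 9 general endothelial markers. Of 8 listed genes 7 were tested, 0 of them lay above it, and the median log2FC was -0.061. Of the 7, 4 had a log2FC below 0 and 3 above it. These 3 were *S1pr1* (0.059), *Tek* (0.081) and *Edn1* (0.068), each higher in 3 of 4 mice. *Sele*, the endothelial adhesion molecule E-selectin, was at 7.51, 5.30, 6.75 and 8.07 TPM in NT muscles and at 0.605, 0.615, 0.261 and 2.87 TPM in *Uba1* siRNA muscles. It missed the adjusted p without pairing (log2FC -2.05, adjusted p = 0.0572 from limma) and fell with the replicate block (adjusted p = 0.0149). *Vcam1* (log2FC -0.54) and *Thbd* (log2FC -0.27) were lower in 4 of 4 mice but did not pass (adjusted p = 0.150 and 0.246 from limma, in this order). As background, *Thbd* and *Nos3* are induced by KLF2, whereas *Sele* and *Vcam1* are inflammatory genes that it represses. *Nos3* ranged from 7.87 to 10.4 TPM and from 7.63 to 9.41 TPM, with overlapping groups.

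Of 6 genes controlled by KLF15 in muscle, 0 passed the adjusted p. *Prodh*, which breaks down proline, was at 1.40 ± 0.378 TPM in NT muscles and at 2.40 ± 0.630 TPM in *Uba1* siRNA muscles (adjusted p = 0.177 from limma), and *Fbxo32*, the atrophy ligase atrogin-1, at 92.0 ± 8.04 and 119 ± 24.1 TPM (adjusted p = 0.236). These were the 2 with an unadjusted P under 0.05, and both were higher in 4 of 4 mice, where 16.0% of all genes were higher at this P. *Trim63*, the atrophy ligase MuRF1, was named after its values were seen and was lower in 4 of 4 mice without passing (243 ± 56.7 and 200.4 ± 20.8 TPM, log2FC -0.26, adjusted p = 0.377 from limma). With the replicate block, 3 of the 6 had an unadjusted P under 0.05, *Trim63* being the 1 that was lower, where with the block 22.4% of all genes were higher and 2.8% lower. Of 6 glucocorticoid-responsive genes 3 were above the median of all genes. *Ddit4* had a log2FC of 0.88 and rose with the replicate block (adjusted p = 0.182 from limma without it and 0.0359 with it), and *Fkbp5* was at a log2FC of 0.36 (adjusted p = 0.178). *Per1*, named after its values were seen, went the other way and was lower in 4 of 4 mice without passing (log2FC -0.61, limma adjusted p = 0.294, or 0.0794 with the replicate block).

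Of 12 immediate-early genes, the class of rapidly induced genes that *Klf2*, *Klf4* and *Klf6* resemble, 11 were below the median of all genes, the median log2FC was -0.60, and 5 had an unadjusted P under 0.05, all 5 lower, as were 1.98% of all genes at this P. Without pairing, 0 passed the adjusted p (limma). *Atf3*, a stress-induced repressor, was at 76.9, 158, 99.8 and 129 TPM in NT muscles and at 14.5, 23.4, 17.7 and 45.8 TPM in *Uba1* siRNA muscles (log2FC -2.23, adjusted p = 0.0575 from limma), and it fell with the replicate block (adjusted p = 0.00663). *Myc* was at a log2FC of -1.21 (limma adjusted p = 0.0760, 0.0268 with the replicate block), and *Egr3* and *Egr2* had log2FC of -0.91 and -0.82 without passing. The mice were not alike, with 2, 0, 0 and 8 of the 12 genes higher with *Uba1* siRNAs in mice 1 to 4, where 83.3%, 56.1%, 81.8% and 61.8% of all tested genes were higher. *Egr3* was among the 8 in mouse 4, and in it *Fos* was at 251 TPM in the NT muscle and at 381 TPM in the other leg.

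**Figure D5:**
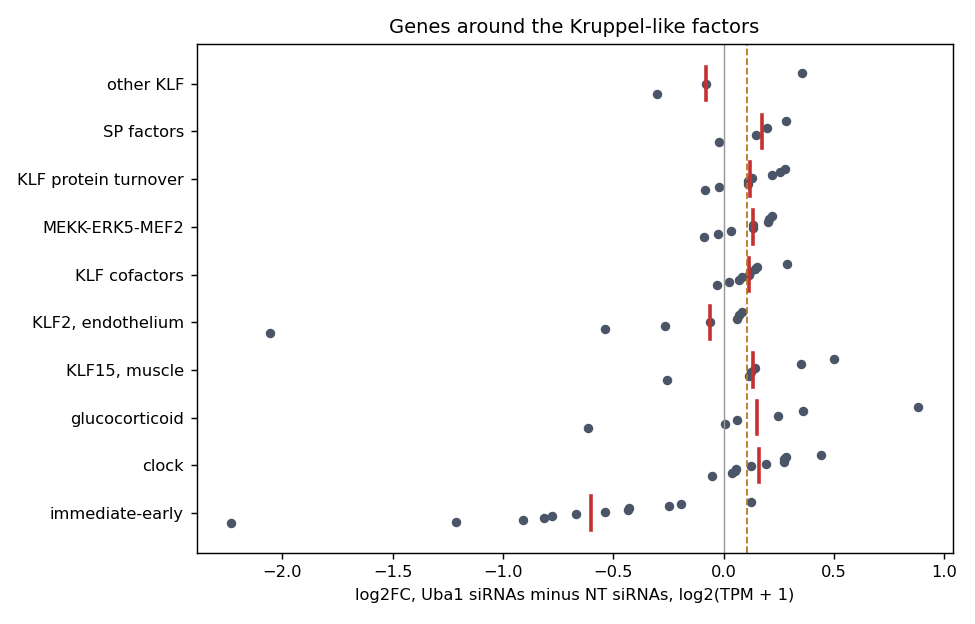
Difference between *Uba1* siRNAs and NT siRNAs (horizontal axis, log2FC of TPM + 1) of each tested gene in the lists around the KLFs, with 1 dot per gene, a red bar for the median of the list and a dashed line for the median of all genes at 0.11. The immediate-early genes and the genes responsive to KLF2 in endothelium have medians of -0.60 and -0.061, and the median of the 3 other KLF genes tested, -0.080, also lies below 0.

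Cell type markers were compared because *Klf2* and *Klf4* are known from endothelium. The summed TPM of 9 endothelial markers were 166 to 243 with NT siRNAs and 187 to 229 with *Uba1* siRNAs, lower in 1 of 4 mice. None of the 9 had an unadjusted P under 0.05 (0 of 9, limma), and their median log2FC was 0.026. The 5 smooth muscle markers summed to 225 to 350 and 240 to 263 TPM, with *Rgs5* alone at means of 134 and 133 TPM. All 5 lay below the median of all genes, their median log2FC was -0.27, and *Cnn1* was at a log2FC of -0.48 (adjusted p = 0.173 from limma). *Myh11* (-0.30), *Tagln* (-0.27) and *Acta2* (-0.24) were lower in mice 1 to 3 and higher in mouse 4, and with the replicate block 2 of the 5 were lower at an unadjusted P under 0.05, as were 2.8% of all genes. Of 8 leukocyte markers 4 were tested, and the 8 summed to 17.7 to 42.04 and 14.5 to 45.8 TPM.

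The 4 adipocyte markers summed to 8.25 to 15.4 TPM in NT muscles and 1.64 to 12.4 TPM with *Uba1* siRNAs, lower in 4 of 4 mice, with *Cidec* at a log2FC of -0.83 (adjusted p = 0.238 from limma). The 5 fibro-adipogenic markers summed to 144 to 202 and 170 to 258 TPM, higher in 4 of 4 mice, with *Lum* at a log2FC of 0.49 (adjusted p = 0.187). Their part in the values of *Klf2*, *Klf4* and *Klf6* was not tested. Of the 4 keratinocyte markers, *Krt5*, *Krt14* and *Dsg3* were listed at 0 in every muscle. *Krt10* was at 1.28 ± 0.156 TPM in NT muscles and at 1.52 ± 0.485 TPM in *Uba1* siRNA muscles (adjusted p = 0.633 from limma). The 6 markers of muscle fibers summed to 98680 to 110114 and 75132 to 110707 TPM, so the tissue is muscle by its markers. All 6 lay below the median of all genes and 5 had a log2FC below 0, with a median of -0.12. None had an unadjusted P under 0.05 (0 of 6, limma).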

How the data were processed

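RNA-seq of 8 TA muscles was used, 4 per siRNA. The authors mapped trimmed read pairs to GRCm39 in CLC Genomics Workbench and deposited 1 TPM value per gene and muscle, and the kit does not mark strand. The annotation and the counting of shared reads are not given in the sources used here.

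Values were transformed as log2(TPM + 1). Genes that reached 1 TPM in 4 or more muscles were tested with limma 3.58.1 in R 4.3.3 (lmFit, eBayes with a trend, all 8 muscles, no covariates, Benjamini-Hochberg over 11530 genes). Intervals of 95% come from this fit. Genes below the filter were compared by exact permutation tests, except that no p is given for *Sp7*. The study's methods name a Kruskal-Wallis test, tried here as an alternative beside another pseudocount, no filter, a mean of 5 TPM or more, median-ratio scaling, a replicate block, both of these together, and leaving out each muscle.

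Equal replicate numbers were read as the legs of 1 mouse, from the number that the titles share. The deviations of same-numbered muscles from their group means correlated across genes at -0.00037, 0.20, 0.58 and 0.54. Of the 4 numbers 3 correlated best with their own, and replicate 1 did not.

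The members and lists were chosen with earlier results of these data known. Named genes were the members, *Uba1*, listed genes at an unadjusted P under 0.05 (up to 4 per list, largest first) and the 5 tested genes most correlated with *Klf2*. *Per2*, *Dbp*, *Arntl*, *Clock*, *Cry1*, *Per1*, *Trim63*, *Rgs5*, *Myh11*, *Tagln*, *Acta2*, *Fos*, *Nos3*, *S1pr1*, *Tek*, *Edn1* and *Sp7* were added after their values were seen. The keratinocyte markers were named as a whole list. Promoter motifs were searched on both strands of GRCm39. One listed gene is not reported here and was left out of its list.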

Additional observations from a re-analysis of the deposited data

How the results depend on the processing

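The number of genes passing an adjusted p of 0.05 was 3 and depended on the processing. It was 11 among genes with a mean of at least 5 TPM, 23 after median-ratio scaling, 57 with the replicate block, 76 when both were used, and 0 with the Kruskal-Wallis test (2210 at an unadjusted P under 0.05). Leaving out 1 muscle gave 2 to 39, with 39 without *Uba1* siRNA replicate 4, 6 without NT replicate 1, and 5 without NT replicate 3 or *Uba1* siRNA replicate 2, and 2 without each other muscle. Median-ratio scaling turned the genes at an unadjusted P under 0.05 from 1844 higher and 228 lower to 511 higher and 712 lower. Of the members other than *Klf2*, 0 passed under any of the 15 alternatives run, among them the Kruskal-Wallis test, under which no gene could pass. The smallest adjusted p was 0.0855, for *Klf4* with the replicate block, and it ranged to 0.351 over the alternatives. The log2FC of *Klf2* ranged from -0.80 to -0.50, of *Klf4* from -0.67 to -0.45 and of *Klf6* from -0.63 to -0.38. *Klf3* and *Klf5* were not among genes with a mean of 5 TPM or more. Values near 0 changed sign in 9 of 138 cases. *Klf15* was at -0.047 with median-ratio scaling, with and without the block. With 1 muscle left out, *Klf3* ranged from 0.083 to 0.21, *Klf13* from 0.11 to 0.25, *Klf5* from -0.16 to 0.10, *Klf10* from -0.38 to -0.0085, *Klf7* from -0.058 to 0.026, *Klf9* from -0.18 to 0.059 and *Klf15* from -0.083 to 0.21. The cause was not tested. The 4 mice limit the precision, and the unknown depth gives no counting interval.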

Other observations

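Deviations of each muscle from its group mean were correlated with those of *Klf2*, as a description over 8 muscles that share mice and legs. The 5 tested genes most like it were *Smad6*, an inhibitor of BMP signaling (Pearson's r 0.955), *Sgk1*, a glucocorticoid-induced kinase (0.951), *Gm45670* (0.934), *Idh3b*, a subunit of a mitochondrial dehydrogenase (0.911), and *Fastkd2* (0.907). *Sgk1* was at 130 ± 14.1 TPM in NT muscles and at 127 ± 19.9 TPM in *Uba1* siRNA muscles, and *Smad6* at 3.36 ± 0.288 and 3.50 ± 0.357 TPM. *Gm45670* was at 2.35 ± 0.639 and 3.81 ± 0.887 TPM (adjusted p = 0.193 from limma).

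Among the members, *Klf4* was the most like *Klf2* (r = 0.759, rank 80 of the tested genes), followed by *Klf10* (0.539) and *Klf6* (0.344). *Klf3* was the least like it among the members (-0.887), and *Uba1* siRNA replicate 3 had the lowest *Klf2* (17.8 TPM) and the highest *Klf3* (4.44 TPM). The pair with the highest r was *Klf4* and *Klf6* (0.801), and *Klf9* and *Klf15* had 0.720.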
